A study of Mus musculus with 3 samples.

Results

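The vacuolar proton pump (V-ATPase) and the proteins set in the membrane of the lysosome were described in sorted thymic cells that have or lack Ostm1, the partner protein of the lysosomal chloride/proton exchanger Clcn7. The set held 43 genes, found by their symbols among the 23348 usable lines of the deposited table, each on a single line: 17 V-ATPase subunits and accessory proteins, 3 vesicular CLC exchangers, 4 lysosomal cation channels, 11 other lysosomal membrane proteins, 5 subunits of Ragulator and 3 transcription factors of the TFE family. All 43 reached 1 FPKM (fragments per kilobase of transcript, scaled to the mapped fragments of a library) in at least 1 library, as did 12849 genes of the table, which are called measured here. Atp6v0d2 did so through the gl/gl library alone.

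RNA was sequenced from DN1 cells (lineage-negative, CD44-positive, CD25-negative) sorted from thymus at 19 days of age in mice of 129sv/C3H strain. The wild type library pooled 2 mice, the gl/gl library pooled 3 grey-lethal mice (Ostm1-/-), and the CD2-Ostm1 gl/gl library pooled 3 gl/gl mice with an Ostm1 transgene named for CD2, a gene of the lymphoid lineage. With 1 library per genotype, no difference given here has a replicate check, no test of a genotype was possible, and differences between pools of the same genotype are unknown. Wherever 3 levels follow each other, the order is wild type, then gl/gl, then the transgenic library. The Ostm1 levels were 19.6, 0 (as listed) and 5.35 FPKM. Cd44, of the sort gate, was at 66.4, 109 and 64.7 FPKM, and Il2ra, which encodes CD25, at 5.94, 11.7 and 4.03. The progenitor gene Kit was at 101, 15.3 and 102 FPKM, and Cd3e, of the T cell receptor complex, at 77.3, 107 and 57.7.

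Cells of other types were unevenly represented by their transcripts. Of the 14 granulocyte markers in the table, 13 were at least 2-fold higher in gl/gl than in wild type and 1 was lower, and the 14 summed to 395, 29215 and 431 FPKM. The 15 monocyte and macrophage markers outside the set summed to 266, 1517 and 172 FPKM with none listed at 0. Lyz2 alone held 91.7, 1038 and 71.3 FPKM of these sums, and Csf1r 15.5, 22.0 and 17.6. The 12 dendritic cell markers summed to 1086, 1527 and 409 FPKM. The 11 mast cell and basophil markers summed to 210, 40.5 and 47.9, with 2 of the 11 listed at 0 in gl/gl and 1 in the transgenic library. The 9 natural killer and innate lymphoid markers summed to 508, 1227 and 442 FPKM, the 9 B cell markers to 55.9, 195 and 103, and the 9 stromal markers to 59.8, 107 and 47.5. At least 2-fold higher in gl/gl than in wild type were 6, 6 and 4 of these, and 2 B cell markers were at least 2-fold lower. Of the 10 measured mast cell and basophil markers 8 were at least 2-fold lower in gl/gl and 1 was higher. In that list 1 gene was at 35.0 FPKM in gl/gl, and Cpa3 was at 40.6 in the transgenic library. Over all measured genes 8.16% were at least 2-fold higher in gl/gl than in wild type and 6.15% lower. Transcripts of the sex chromosomes differed as well, with Xist at 116, 0.184 and 235 FPKM and the Y-linked Eif2s3y at 0.0338, 59.8 and 0.0395. The part of these differences in the results below was not tested, and in bulk RNA a larger number of cells of a type cannot be told apart from more RNA per cell.

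The V-ATPase pumps protons into lysosomes and other vesicles. Its cytosolic V1 sector splits ATP and turns a rotor that drives protons through the V0 sector in the membrane, while CLC exchangers carry chloride inward and so balance the charge. The acid lumen feeds hydrolases, cation channels of the mucolipin and pore channel families release calcium and other ions, and Ragulator anchors the Rag GTPases and with them mTORC1 at the lysosomal surface. Tfeb, Tfe3 and Mitf bind E-box elements in promoters of lysosomal genes and are held in the cytosol while mTORC1 is active. In osteoclasts the same pump, with Clcn7 and Ostm1, acidifies the bone surface.

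E-box letters of the kind these factors bind are shown first, since they are what part of the set shares in sequence. The letters alone do not tell which factor binds them. Promoters from RefSeq (build GRCm38.p6, 250 bases before to 50 after a start) matched 33 of the 43 members by symbol, and 11 of these 33 genes (33.3%) held the 6 letters CACGTG, a palindrome read the same on both strands. The share was 8.09% of all 27025 genes with a promoter in the table and 11.8% of the 9442 measured ones. A gene with several promoters counts if any of them matches. Counted by promoter, the share was 25% of the 44 of the members and 9.97% of the 11954 of measured genes. The longer TCACGTGA, which contains the 6 letters, was found in 6 members (18.2%) against 2.29% of measured genes. For the 33 lysosomal hydrolase genes with a promoter the share with CACGTG was 36.4%. GAGGAAGT, a form of the site of the myeloid factor PU.1 searched on both strands, was in none of the 33 members with a promoter. It was in 4.24% of measured genes and in 12.1% of the 33 hydrolase genes. A share of 4.24% gives few matches among 33 genes, so nothing is read from their absence. These matches describe letters in a window and not binding.

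The promoters with the most matches are given with the 6 letters in capitals, 5′ to 3′ on the strand of the gene. Lamp1 held 4 matches in its last 100 bases before the start, and Mcoln1, Clcn6, Cln3, Atp6v0b and Lamtor4 held 2 each. The Cln3 window lies inside the interval of Cln3 in the table (chr7:126571400-126584280), so the start used there lies within the measured gene.
Lamp1 (chr8:13159061-13159160, plus strand): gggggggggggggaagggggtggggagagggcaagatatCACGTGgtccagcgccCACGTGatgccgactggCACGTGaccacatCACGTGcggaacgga
Mcoln1 (chr8:3500419-3500518, plus strand): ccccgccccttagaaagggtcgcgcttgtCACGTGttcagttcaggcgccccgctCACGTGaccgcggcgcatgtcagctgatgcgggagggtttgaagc
Cln3 (chr7:126583317-126583416, minus strand): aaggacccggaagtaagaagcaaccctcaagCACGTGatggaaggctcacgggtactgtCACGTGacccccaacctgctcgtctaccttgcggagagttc
Clcn6 (chr4:148038814-148038913, minus strand): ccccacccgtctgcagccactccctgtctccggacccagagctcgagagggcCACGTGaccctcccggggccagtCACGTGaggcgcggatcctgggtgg
Atp6v0b (chr4:117887330-117887389, minus strand): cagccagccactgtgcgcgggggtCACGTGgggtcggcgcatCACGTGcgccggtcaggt
Lamtor4 (chr5:138255358-138255387, plus strand): ttaaCACGTGaacagcttttCACGTGtaaa

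The pump subunits with the longer element are shown as 30-base windows around it. In Atp6v0d1 it lies across the annotated start, and in Atp6v0e just after it.
Atp6v0d1 (chr8:105566050-105566079, minus strand): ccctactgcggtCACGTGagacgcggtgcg
Atp6v1a (chr16:44139373-44139402, minus strand): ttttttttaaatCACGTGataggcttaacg
Atp6v0e (chr17:26676387-26676416, plus strand): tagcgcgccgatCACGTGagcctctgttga

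**Figure D1:**
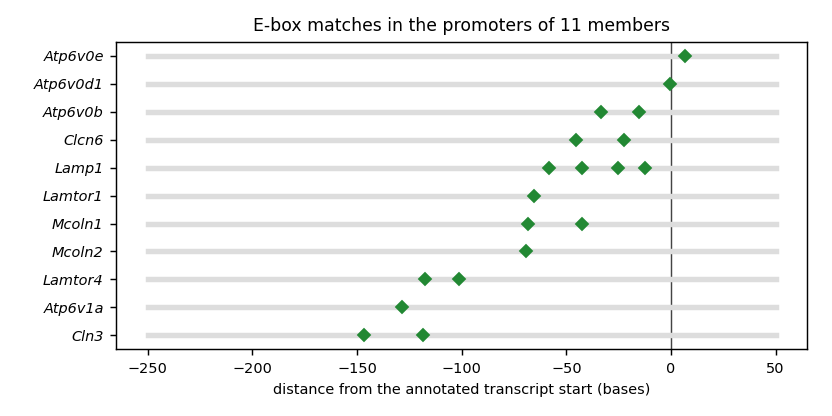
Each row is the promoter of a member, from 250 bases before to 50 bases after its annotated start, and each diamond the centre of an E-box match. Of the 19 matches, 18 begin within 150 bases before the start. For Cln3 and Lamtor1 the start used lies inside the interval of the gene in the table.

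Across the set, gl/gl was above wild type for most genes, mostly by less than 2-fold. The median difference of log2(FPKM + 1) between gl/gl and wild type was 0.30 over the 43 members and -0.03 over all measured genes, and 34 members were above 0, where 47.5% of all measured genes were. At 1.5-fold 9 members were higher, where 16.3% were, and 1 was lower, where 16.1% were. At least 2-fold higher were 5 members (Cd68, Atp6v0a1, Tfeb, Cd63 and Atp6v0d2) or 11.6%, where 8.16% of all measured genes were, and Laptm4b was the 1 member at least 2-fold lower, where 6.15% were. The count past 2-fold is thus near that of the whole table. It includes Atp6v0d2, which is measured through gl/gl alone. In mm10 the intervals of these 6 genes in the table are chr11:69664371-69666062 (Cd68), chr11:101009452-101063717 (Atp6v0a1), chr17:47737037-47792416 (Tfeb), chr10:128908919-128912818 (Cd63), chr4:19876838-19922566 (Atp6v0d2) and chr15:34238026-34284295 (Laptm4b). In the transgenic library against wild type 31 of 43 members were below 0, where 55.2% of all measured genes were, with a median of -0.19 against -0.04. No member was 2-fold higher (1.34% of all measured genes) and only Cd63 was 2-fold lower (1.67%). At 1.5-fold 1 member, Clcn6, was higher (5.23% of all) and 3 were lower (4.26%). Against gl/gl the transgenic library was lower for 37 of 43 members, where 48.2% of measured genes were, and at least 2-fold lower for 5, where 9.82% were, and for none at least 2-fold higher, where 6.47% were. At 1.5-fold, 18 members (41.9%) were lower in this last comparison, where 18.8% of all measured genes were, and 1 was higher, Mcoln2, where 16.8% were. All 3 comparisons draw on the same 3 libraries and are not independent.

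**Figure D2:**
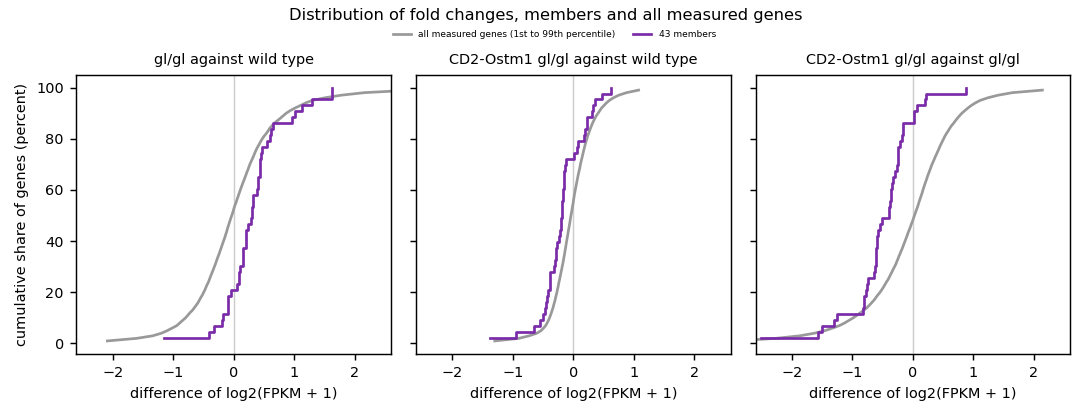
Cumulative share of genes (vertical axis, percent) by difference of log2(FPKM + 1) (horizontal axis) for the 43 members and for all measured genes, in each comparison. The members lie to the right of all genes for gl/gl against wild type (median 0.30 against -0.03) and to the left for CD2-Ostm1 gl/gl against gl/gl (median -0.39 against 0.02).

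Transcript length and level moved with the differences of the transgenic library. Among all 2304 measured genes under 3000 bases and with a mean level of 20 FPKM or more, 83.8% were lower in CD2-Ostm1 gl/gl than in wild type, with a median of -0.24, and the 20 members of this kind were all lower, with a median of -0.29. The other 23 members had a median of 0.01 in that comparison. For gl/gl against wild type the short and abundant genes went the other way than the members: their median was -0.14 over all genes and 0.18 over the 20 members. The part of length and level in the differences was not tested.

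**Figure D3:**
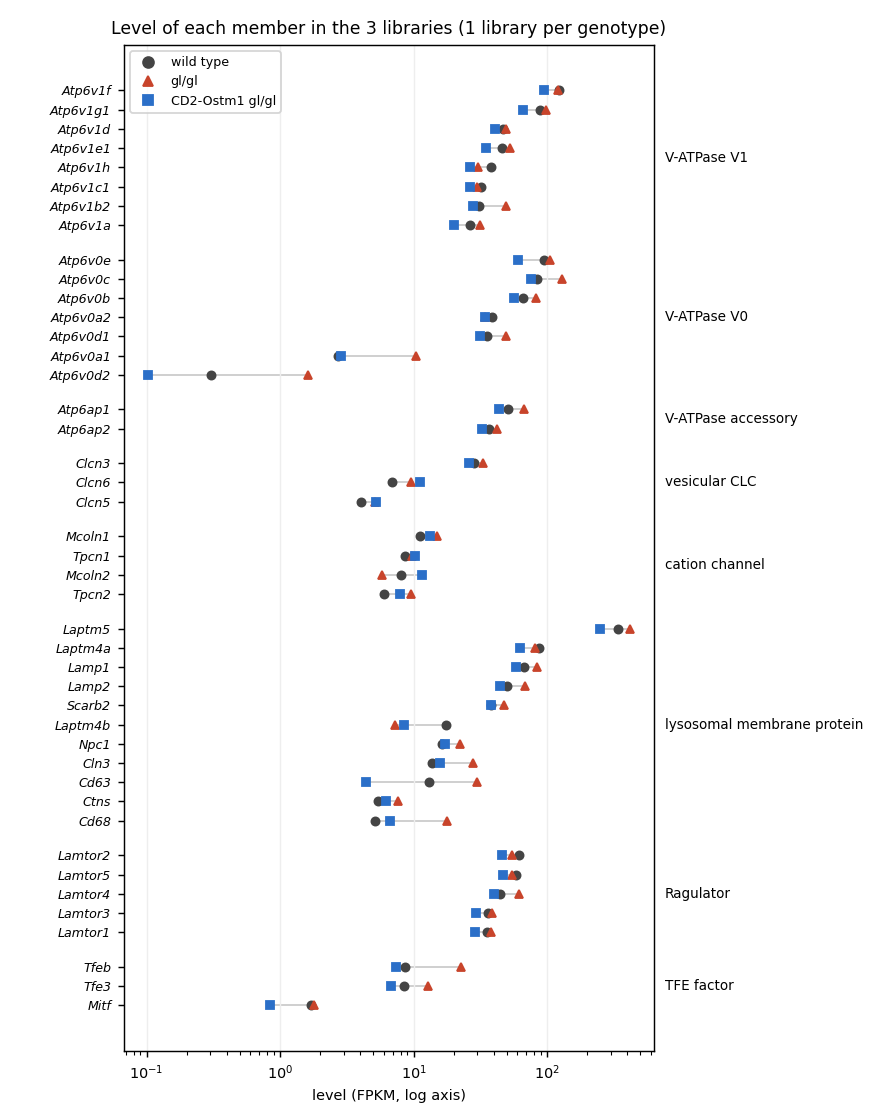
Level of each member in FPKM on a log axis, with 1 point per library (circle wild type, triangle gl/gl, square CD2-Ostm1 gl/gl), ordered by class and by wild type level. Laptm5 is the highest at 341 FPKM in wild type and Atp6v0d2 the lowest at 0.305, and Atp6v0a1, Cd63, Cd68 and Tfeb show the widest gaps between libraries after Atp6v0d2.

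No gene of the V1 sector reached 2-fold in any comparison. Of all measured genes 1.34% to 9.82% did, by comparison and direction. Such shares give few among 8 genes, so nothing is read from this. Atp6v1f, a rotor subunit, had the highest level with 124, 120 and 94.1 FPKM. Atp6v1a, the catalytic subunit, had 26.4, 31.2 and 19.9 FPKM. It was the lowest of the 8 V1 genes in wild type and in the transgenic library, while Atp6v1c1 was the lowest in gl/gl. Atp6v1b2, the ATP-binding B subunit, differed most between gl/gl and wild type, with 31.0, 49.4 and 27.8 FPKM and a log2 difference of 0.66. Atp6v1h, which couples and regulates the sectors, was the member of the sector with the lowest log2 difference, -0.32, with 38.2, 30.3 and 26.7 FPKM. The peripheral stalk genes Atp6v1e1 (45.7, 52.8 and 34.6 FPKM) and Atp6v1g1 (88.2, 98.4 and 65.5 FPKM) and the rotor subunit Atp6v1d (46.6, 49.6 and 41.1 FPKM) were highest in gl/gl and lowest in the transgenic library, while Atp6v1c1, the C subunit, had 32.3, 30.1 and 26.6 FPKM. All 8 were lower in CD2-Ostm1 gl/gl than in wild type with log2 differences down to -0.50, where 55.2% of all measured genes were lower. Apart from Atp6v1a and Atp6v1d they are under 3000 bases and at 20 FPKM or more, and 83.8% of all such genes were lower. The interval of Atp6v1d in the table holds 38.5% of the exonic bases of its longest annotated coding transcript.

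The V0 sector held both even and uneven members. The proteolipids of the proton-carrying ring, Atp6v0c and Atp6v0b, had 83.8, 129 and 76.2 FPKM and 66.1, 83.2 and 57.0 FPKM. Atp6v0e, a small membrane subunit, had 95.2, 106 and 60.1 FPKM and with a log2 difference of -0.65 was the pump gene lowest in the transgenic library relative to wild type. These 3 genes were highest in gl/gl and lowest in the transgenic library. Of the 17 pump and accessory genes, 13 were highest in gl/gl, 4 in wild type (Atp6v0a2, Atp6v1c1, Atp6v1f and Atp6v1h) and none in the transgenic library, which was the lowest for 15. Over all measured genes 39.3% were highest in gl/gl, and 32.2% were lowest in CD2-Ostm1 gl/gl. Atp6v0b, Atp6v0c, Atp6v0d1, Atp6v0e, Atp6ap1 and Atp6ap2 are under 3000 bases and at 20 FPKM or more. Of all such genes 83.8% were lower in CD2-Ostm1 gl/gl than in wild type, and 56.8% lower than in gl/gl. The part of length and level in these counts was not tested.

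The a subunit, which forms the proton path and directs the pump to a given membrane, is encoded by 4 genes. Atp6v0a1 had 2.70, 10.5 and 2.85 FPKM, a log2 difference of 1.63 between gl/gl and wild type and of 0.06 between the transgenic library and wild type. It was high in the gl/gl library alone. Tcirg1, the a3 gene of osteoclast and lysosomal pumps and no member of the set, had 51.3, 65.3 and 67.9 FPKM, and Atp6v0a4, the kidney form, was at 0.0274 FPKM or less in every library. Atp6v0a2, the Golgi and endosome form, had 39.0, 34.0 and 34.5 FPKM, but its interval in the table covers only 10 of the 20 exons of its longest annotated coding transcript, so its level may not stand for the full transcript. By these values Tcirg1 made up 55.1%, 59.4% and 64.5% of the summed a subunit transcripts and Atp6v0a1 2.90%, 9.54% and 2.71%. Tcirg1 had the highest listed level of the 4 in all 3 libraries, and these shares rest on the uncertain level of Atp6v0a2, for which 35.1% of exonic bases lie in the interval.

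The d subunit links the rotor to the ring. Its ubiquitous form Atp6v0d1 had 35.7, 49.4 and 31.2 FPKM, and Atp6v0d2, the form known from osteoclasts, macrophages and kidney, had 0.305, 1.62 and 0.102. By a rough estimate from the spacing of the lowest values, the Atp6v0d2 levels rest on about 35, 112 and 7 fragments. The log2 difference between gl/gl and wild type was 1.01 for Atp6v0d2, although the ratio of the levels themselves was 5.31, since the added 1 FPKM damps low values. Atp6v0d2 still made up no more than 3.18% of d subunit transcripts in any library. Other osteoclast markers went several ways: Acp5 had 20.2, 80.9 and 22.8 FPKM and Mmp9, which neutrophils also express, 1.19, 159 and 1.16, while Car2 had 68.1, 18.0 and 48.4. The defining osteoclast genes Calcr, Oscar and Dcstamp were at 0.111 FPKM or less in every library, and Ctsk at 0.551 or less. Of the 12 osteoclast markers outside the set, summing to 198, 406 and 200 FPKM, 2 were listed at 0 in gl/gl (Calcr and Oscar) and 2 in the transgenic library (Dcstamp and Ocstamp).

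For the B, C, E, e and G subunits the form in the set made up most of the transcripts. Atp6v1b2 was at least 99.9% of B subunit transcripts, Atp6v1c1 at least 99.4% of C, Atp6v1e1 at least 99.9% of E and Atp6v0e at least 98.4% of e transcripts in each library. Atp6v1g2, the neuronal G form, had 3.06, 3.64 and 4.51 FPKM, or 3.36%, 3.56% and 6.44% of G transcripts. The accessory proteins Atp6ap1 (51.0, 67.4 and 43.8 FPKM) and Atp6ap2, the prorenin receptor (36.5, 42.4 and 32.6 FPKM), followed the order of the ring genes. Of 11 measured assembly factors and relatives outside the set, 2 were at least 2-fold higher in gl/gl and none lower, with a median log2 difference of -0.07. Over all measured genes 8.16% were higher and 6.15% lower. Dmxl2 and Rogdi, both of the RAVE complex that joins V1 to V0, had 0.298, 5.98 and 0.505 FPKM and 6.69, 23.6 and 6.05 FPKM. Dmxl2 and Rogdi were thus high in the gl/gl library alone. Dmxl2 also counts as measured through that library alone.

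**Figure D4:**
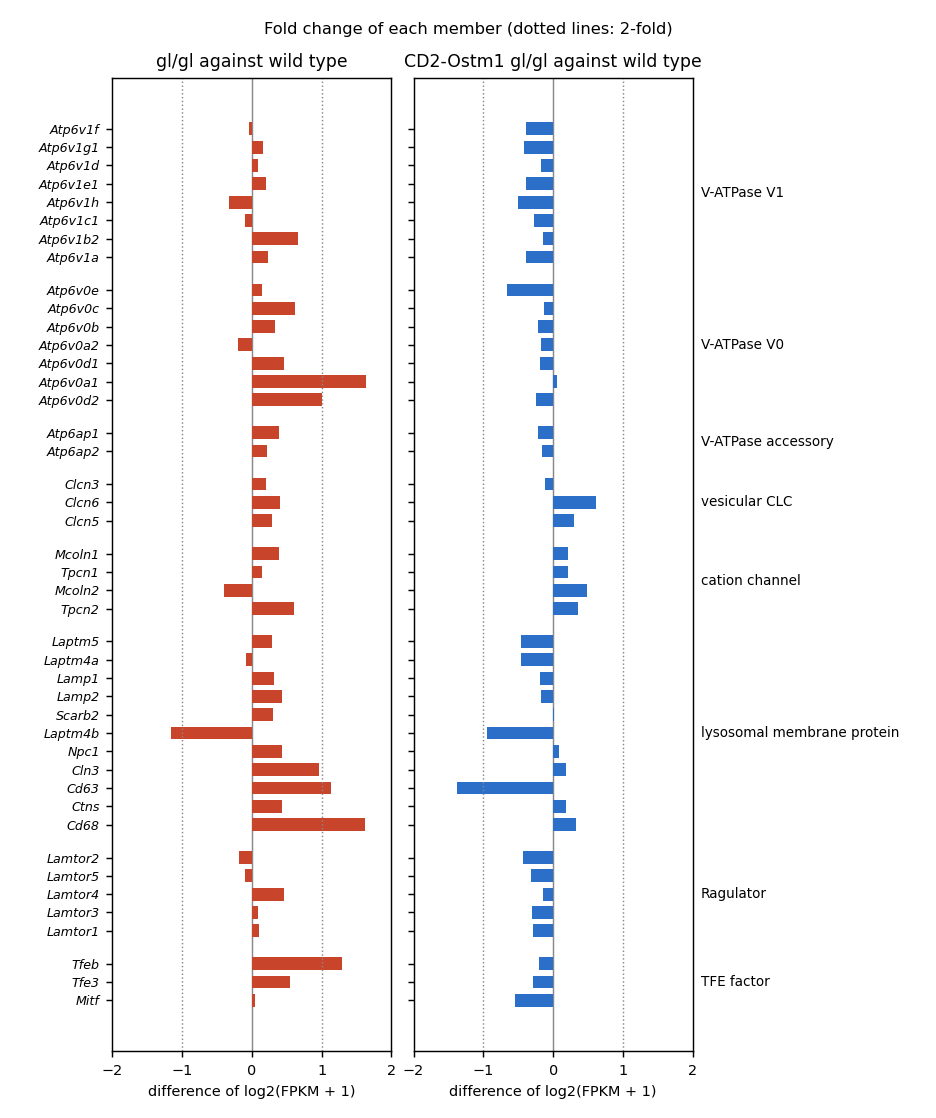
Difference of log2(FPKM + 1) of each member for gl/gl against wild type (left) and CD2-Ostm1 gl/gl against wild type (right), with dotted lines at 2-fold. On the left 34 of 43 bars lie above 0 and 6 pass a dotted line. On the right 31 lie below 0 and only that of Cd63 passes.

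No exchanger or channel of the set reached 2-fold in any comparison. By comparison and direction, 1.34% to 9.82% of all measured genes did. Such shares give few genes in so small a class, so nothing is read from this. Clcn3, an endosomal chloride/proton exchanger, had 28.4, 33.0 and 26.0 FPKM, Clcn5 had 4.04, 5.16 and 5.22, and Clcn6, of late endosomes, had 6.90, 9.49 and 11.1. Clcn6 was the member with the highest log2 difference between the transgenic library and wild type, 0.62, under 2-fold. The interval in the table holds 56.2% of the exonic bases of the longest annotated coding transcript for Clcn6 and 45.1% for Clcn5. Their levels, and shares that rest on them, may not stand for the full transcripts. Clcn7, the partner of Ostm1, had 8.94, 12.5 and 9.04 FPKM and made up 12.3% of the summed transcripts of 5 vesicular CLC genes in wild type. There Clcn3 (39.2%) and Clcn4-2 (33.4%) made up most of that sum.

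Mcoln1, the ubiquitous lysosomal calcium channel TRPML1, had 11.2, 14.9 and 13.2 FPKM. Mcoln2, a paralogue expressed in lymphoid and myeloid cells, had 8.04, 5.85 and 11.6 FPKM, and its log2 difference between the transgenic library and gl/gl, 0.88, was the highest of any member in that comparison. Mcoln3, the third paralogue and outside the set, had 7.48, 1.38 and 7.83 FPKM, a log2 difference of -1.83 between gl/gl and wild type. Mcoln1 therefore made up 67.4% of mucolipin transcripts in gl/gl against 41.9% in wild type and 40.5% in the transgenic library, and Mcoln3 6.22% against 28.0% and 24.0%. The summed level was 26.7, 22.2 and 32.7 FPKM. The pore channels Tpcn1 (8.70, 9.74 and 10.3 FPKM) and Tpcn2 (5.97, 9.59 and 7.92 FPKM) shared their sum more evenly, with Tpcn2 at 40.7%, 49.6% and 43.5%.

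**Figure D5:**
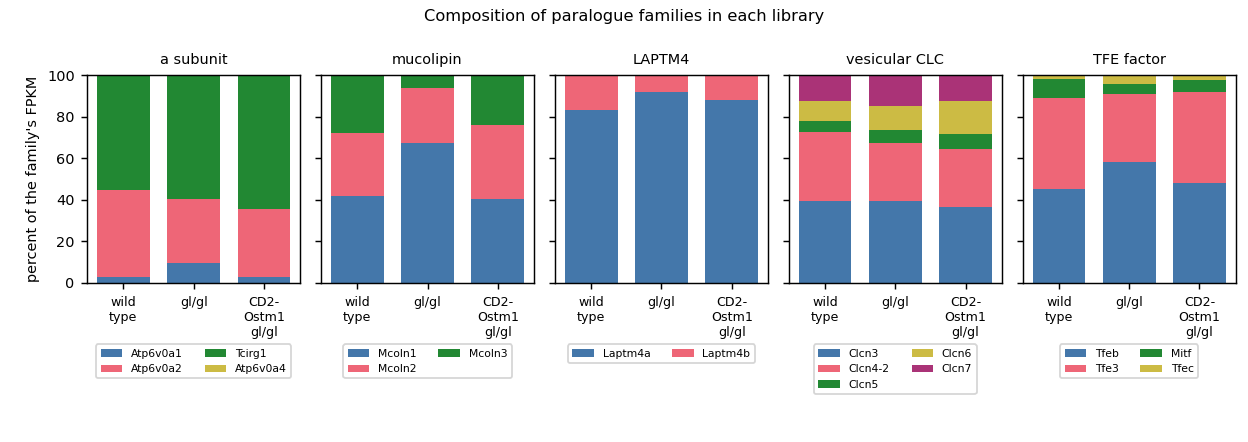
Percent of the summed FPKM of a paralogue family taken by each gene, for the a subunit, the mucolipins, the LAPTM4 genes, the vesicular CLC exchangers and the TFE factors, with 1 bar per library. The gl/gl bars differ most for the mucolipins, where Mcoln1 takes 67.4%, and for the TFE factors, where Tfeb takes 58.3%.

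Of the 11 other membrane proteins, Cd68, Cd63 and Laptm4b reached 2-fold between gl/gl and wild type. Over all measured genes 8.16% were higher and 6.15% lower. Lamp1 and Lamp2, the main glycoproteins of the lysosomal coat, had 67.2, 84.3 and 58.7 FPKM and 50.5, 68.4 and 44.4 FPKM. Scarb2, the sorting receptor of glucocerebrosidase, had 38.1, 47.2 and 38.3 FPKM, Npc1, a cholesterol exporter, 16.2, 22.3 and 17.2, and Ctns, the cystine exporter, 5.38, 7.62 and 6.27. Each of these 5 was highest in gl/gl, with log2 differences from wild type between 0.30 and 0.44. The interval of Scarb2 in the table holds 44.9% of the exonic bases of its longest annotated coding transcript. Cln3, the protein lost in Batten disease, had 13.9, 27.9 and 15.9 FPKM, a log2 difference of 0.96. Of its exonic bases, 13.8% are shared with other annotated genes, the largest part with the antisense Apobr, a lipoprotein receptor gene at 8.79, 24.7 and 8.30 FPKM, and the strand setting of the counting is not given in the sources used here, so its value is uncertain. For Lamp1 11.2% of exonic bases overlap Grtp1, which was at 0.183 FPKM or less, and for Npc1 11.5% overlap Rmc1.

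Cd68, the macrosialin of macrophage lysosomes, had 5.11, 17.9 and 6.67 FPKM, log2 differences from wild type of 1.63 and 0.33. It is itself a marker of macrophages. Of the 15 other monocyte and macrophage markers 10 were at least 2-fold higher in gl/gl, where 8.16% of all measured genes were. Cd63, a tetraspanin of lysosomes and secretory granules that is abundant in mast cells and basophils, had 13.1, 29.8 and 4.43 FPKM, log2 differences of 1.13 and -1.38. It was the member with the widest gap between the transgenic library and gl/gl, a log2 difference of -2.51. Of the 10 measured mast cell and basophil markers, 8 were at least 2-fold lower in gl/gl than in wild type and 1 was higher. In the transgenic library 7 were at least 2-fold lower than in wild type and 0 higher. Over all measured genes 6.15% were lower in gl/gl and 1.67% in the transgenic library. The part of these cells in the Cd63 levels was not tested.

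The LAPTM genes encode small membrane proteins that sort cargo to lysosomes. Laptm5, the blood cell form that limits antigen receptor levels, was the most abundant member in each library with 341, 418 and 248 FPKM. Laptm4a had 86.6, 81.5 and 62.6 FPKM. Laptm4b had 17.4, 7.23 and 8.53 FPKM, log2 differences of -1.16 and -0.95, so it was low in both libraries of gl/gl background. The progenitor gene Cd34 had 149, 6.17 and 153 FPKM. Over the 10 measured mast cell and basophil markers the median log2 differences from wild type were -3.96 and -3.06. In gl/gl 1 of these markers went the other way, with a log2 difference of 3.96. The part of these cells in the Laptm4b levels was not tested. Laptm4b made up 16.7%, 8.15% and 12% of LAPTM4 transcripts in the order of the libraries.

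No gene of Ragulator reached 2-fold in any comparison. The share of all measured genes that did was 1.34% to 9.82%, by comparison and direction. Such shares give few among 5 genes, so nothing is read from this. Its 5 genes Lamtor1 (35.3, 38.0 and 28.7 FPKM), the membrane anchor, Lamtor2 (61.7, 54.4 and 45.6), Lamtor3 (36.2, 38.6 and 29.2), Lamtor4 (44.6, 61.9 and 40.2) and Lamtor5 (58.2, 54.2 and 46.5), the subunits held around it, differed between gl/gl and wild type by a median log2 difference of 0.09. The highest was Lamtor4 at 0.46 and the lowest Lamtor2 at -0.18. All 5 were lower in the transgenic library than in wild type, with a median of -0.30, where 55.2% of all measured genes were lower. All 5 are under 3000 bases and at 20 FPKM or more, and 83.8% of all such genes were lower, with a median of -0.24. Against gl/gl the 5 were lower as well, with a median of -0.39, where 48.2% of all measured genes and 56.8% of such genes were. Lamtor4 was the lowest there at -0.61. The matches of Lamtor4 begin 120 and 104 bases before its start. Of 27 measured genes of the Rag GTPases, mTORC1 and its regulators, none reached 2-fold between gl/gl and wild type or between the transgenic library and wild type. Over all measured genes 8.16% were higher and 6.15% lower in the former comparison, and 1.34% and 1.67% in the latter. At least 2-fold lower in the transgenic library than in gl/gl were 2, Rragd and Sesn2, where 9.82% of all measured genes were. Rraga had 16.1, 22.5 and 16.4 FPKM and Rragb 5.25, 3.25 and 4.46.

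Of the 3 TFE factors of the set, Tfeb alone reached 2-fold. Tfeb had 8.64, 22.7 and 7.34 FPKM. On the log2(FPKM + 1) scale gl/gl was 2.46-fold above wild type, and the transgenic library differed from wild type by -0.21 and from gl/gl by -1.51. Tfe3 had 8.44, 12.8 and 6.73 FPKM, a log2 difference of 0.54 between gl/gl and wild type. Mitf had 1.70, 1.79 and 0.841 FPKM, a log2 difference of 0.05 between gl/gl and wild type. Tfec, a macrophage paralogue outside the set, had 0.366, 1.71 and 0.384 FPKM. The summed level of the 4 factors was 19.1, 39.0 and 15.3 FPKM, and each of the 4 was highest in gl/gl, as were 39.3% of all measured genes. Transcript levels do not show how much of these proteins was in the nucleus.

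The 11 members with CACGTG in the promoter were set beside the 22 without it, and the difference between them was not tested. Between gl/gl and wild type the median log2 difference was 0.33 with the letters and 0.30 without, and 10 of 11 and 18 of 22 were above 0, where 47.5% of all measured genes were. The 4 members at least 2-fold higher in gl/gl that have a promoter in the table (Cd68, Atp6v0a1, Tfeb and Cd63) held no match in these windows. Between the transgenic library and wild type the medians were -0.19 and -0.20, and between the transgenic library and gl/gl they were -0.54 and -0.48. Of genes known as TFE targets or relatives, 11 were measured. At least 2-fold higher in gl/gl were 3 of them (Acp5, Gpnmb and Wipi1), where 8.16% of all measured genes were, and none was lower, where 6.15% were. Gpnmb, a membrane glycoprotein of macrophages and osteoclasts, had 0.109, 3.96 and 0.106 FPKM, and Wipi1, an autophagy protein, 1.92, 6.27 and 1.24. Gpnmb counts as measured through the gl/gl library alone, where it is called higher.

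The 40 lysosomal hydrolases and helpers had a median log2 difference of 0.33 between gl/gl and wild type, with 7 at least 2-fold higher and none lower, and of -0.61 between the transgenic library and gl/gl, with 12 lower. Over all measured genes 8.16% were higher and 6.15% lower in the former comparison, and 9.82% were lower in the latter. Of 36 measured other lysosomal membrane proteins 4 were at least 2-fold higher in gl/gl (Slc11a1, Slc15a3, Tmem106b and Litaf) and 1, Mcoln3, was lower, with a median of 0.19. The largest differences were those of Slc11a1, a metal transporter of phagocytes, at 0.554, 12.4 and 0.264 FPKM, and Slc15a3, a peptide and histidine transporter, at 3.25, 17.9 and 2.45. Slc11a1 counts as measured through the gl/gl library alone. The difference between the set and these lists was not tested.

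On the X chromosome lie 5 members (Atp6ap1, Atp6ap2, Lamp2, Clcn5 and Tfe3). Their median log2 difference between gl/gl and wild type was 0.39 and each was above 0, while the 399 measured X-linked genes had a median of -0.20. Above 0 were 148 of those 399 and 47.5% of all measured genes. Without genes of the X and Y chromosomes, the median of the other 38 members was 0.27. Sex-linked expression and genotype cannot be told apart for these 5 genes. The limit holds for members on other chromosomes as well. Xist was at 116, 0.184 and 235 FPKM and the Y-linked Eif2s3y at 0.0338, 59.8 and 0.0395. By these transcripts the gl/gl pool differed in sex from the wild type and transgenic pools. Leaving out genes of the X and Y chromosomes does not remove a difference of sex in the other members, and its part was not tested.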

How the data were processed

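RNA from sorted DN1 cells of 3 genotypes was sequenced, 1 pooled library each. The build mm10, TopHat2 (2.0.10) and Cuffdiff (2.2.1) are named per the submitters' processing notes. For annotation, strand setting and scaling between libraries, the sources used here give nothing. The header names no unit; since Cuffdiff writes FPKM, the values deposited by the authors were taken as FPKM. Of 23352 lines, 1 was empty and not analysed here, 3 held a cell that was no number, and 23348 were used.

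Fold changes are differences of log2(FPKM + 1), which understate changes of low genes. Measured genes had at least 1 FPKM in some library, and 2-fold was the threshold. Depth was estimated from the lowest values of genes with 1 annotated transcript, assuming fragments of 200 bases: 1 fragment on 1 kb was worth about 0.0207, 0.0339 and 0.0368 FPKM (wild type, gl/gl, transgenic), and the median member had about 2458, 1661 and 1261 fragments. These estimates cover counting error only. Lengths, exons and overlaps came from GENCODE M21 (the same build), with lengths for 11419 measured genes, and promoters from RefSeq. Positions count from 1.

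The members and lists were chosen with earlier results of these data known, and the length and level bins, the motifs and the run without sex chromosomes after seeing the data. Every member is named; outside the set the rule named Ostm1, Clcn7, Tcirg1, Atp6v0a4 and up to 3 genes of each list with the greatest fold change between gl/gl and wild type at 5 FPKM or more. Other markers, paralogues and genes of small counts were picked with their values known. The calling code was tested on simulated data. Python 3.11.15 with pandas 2.3.3 was used.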

Additional observations from a re-analysis of the deposited data

How the results depend on the processing

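With 1 library per genotype no replicate could be left out, and no paired analysis was possible because no test was made. The medians of the set kept their sign and moved by less than 0.1 under every alternative run for them (pseudocounts of 0.1 and 5, no filter, a filter of 5 FPKM, which leaves 41 members, a median-ratio scaling, an upper-quartile scaling, and no sex chromosomes): they ran from 0.27 to 0.37 for gl/gl against wild type, from -0.20 to -0.12 for CD2-Ostm1 gl/gl against wild type and from -0.42 to -0.33 for CD2-Ostm1 gl/gl against gl/gl. Counts past the threshold are small and moved. With a pseudocount of 5, 3 members were higher and 0 lower in gl/gl than in wild type (4.05% and 2.7% of all measured genes), 0 were lower in the transgenic library than in wild type (0.708%), and 2 were lower in it than in gl/gl (4.93%). With a pseudocount of 0.1, 3 were lower in the transgenic library than in wild type (3.31%). At 1.5-fold, 9 were higher in gl/gl, 1 was higher and 3 were lower in the transgenic library against wild type, and 1 was higher and 18 were lower in it against gl/gl. At 4-fold, 0 were higher and 0 lower in gl/gl (2.37% and 1.13%), 0 were lower in the transgenic library against wild type (0.397%), and 1, Cd63, was lower in it against gl/gl (2.59%). The lower counts with a pseudocount of 5 follow from its damping of low values. Of 444 values of 17 members under the alternatives none changed sign past the threshold, 19 fell short of it and 11 newly passed it. The filters, the other thresholds and the run without sex chromosomes leave each value as it is, so those values could not change sign. Part of the 19 and of the 11 came from moving the threshold to 4-fold or 1.5-fold alone. These counts therefore say little about how stable the values are. Atp6v0d2 (log2 difference 1.01 between gl/gl and wild type) was at 0.9986 with an equal upper quartile and at 0.32 with a pseudocount of 5, and it was removed by the filter of 5 FPKM. Its level in CD2-Ostm1 gl/gl rests on about 7 fragments.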
